A study of Mus musculus with 6 samples.

Results

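Symbols made of Gm and a number are placeholders that mouse annotation gives to predicted gene models, and 11148 of the 36706 genes in the count tables carry one. The genes described here are the 101 of them selected on their level, with 6 genes left out by name: a mean of at least 3 CPM over 6 libraries of mouse macrophages, where CPM are counts scaled to the library total. Gm12250, Gm12185, Gm5431, Gm4841, Gm4951 and Gm46635 were left out by name, and 5 of these 6 reached the level. All 6 rose at least 2-fold (median log2 fold change 4.24), so the 101 do not hold these strong rises. In all, 10213 listed genes reached it. The level was set on the mean of both groups: 82 of the 101 Gm genes reached 3 CPM in both groups, 11 in untreated cells only and 8 with treatment only. Just inside the level lay Gm6634 and Gm38560, at 3.01 CPM each, and just outside lay Gm20544 at 2.99 CPM and Gm10777 at 2.96 CPM.

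The cells were macrophages grown with M-CSF from the bone marrow of wild-type (WT) mice. There were 3 untreated libraries and 3 from cells given interferon gamma (IFN-γ) for 3 h, and both groups share the WT genotype. Nothing in the labels shows whether a replicate is its own mouse or culture. The p-values therefore weigh group differences only against the spread between these libraries, which may be technical. Per its design text, the series profiled how IFN-γ changes gene expression, with the induction of Acod1 as its question.

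Interferon gamma binds a receptor that signals through the JAK-STAT pathway, which acts on DNA elements called GAS. Newly made IRF factors and related complexes then act at a second kind of element, the ISRE. Many Gm symbols stand for long noncoding RNAs (lncRNAs), which often lie beside, opposite or inside protein-coding genes. Others stand for retrocopies of abundant mRNAs, or for C2H2 zinc finger proteins of the KRAB family, which sit in tandem clusters and are known as repressors of transposable elements.

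By RefSeq biotype (assembly GRCm38.p6), 56 of the 101 Gm genes were lncRNAs, 36 were protein coding and 9 were pseudogenes. They lay on 20 chromosomes. Most were weakly expressed: the median level was 4.23 TPM, a unit that corrects for transcript length, against 18.0 TPM for all genes with at least 3 CPM. The pseudogene Gm14681 stood highest, at 110 TPM, followed by Gm36161 at 49.9 TPM and Gm20559 at 46.0 TPM, and the lowest Gm gene had 0.66 TPM.

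Total counts ran from 28133342 to 34233607 per library, and 3 counts were worth 0.0890 to 0.101 CPM. The summed level of 10 macrophage markers was 20330 to 21897 CPM untreated and 21827 to 23065 CPM with IFN-γ. The summed level of 8 neutrophil markers was 79.4 to 105 CPM untreated and 137 to 150 CPM with IFN-γ, with 4 of the 7 tested called higher, and 5 dendritic cell markers summed to 1.69 to 2.26 CPM and 4.82 to 5.41 CPM, with Xcr1 called higher. T cell, B cell, NK cell, fibroblast, erythroid and mast cell lists summed to 4.97 CPM or less in every library, with Cd3e and Fcer1a at 0. The part of these marker differences in the results for the Gm genes was not tested. Of the 16 JAK-STAT pathway genes listed, IFN-γ receptor genes included, 15 were higher and 1 lower (median log2 fold change 1.38).

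With IFN-γ, 41 of the 101 Gm genes changed: 25 rose and 16 fell, and the other 60 were not called. The test was edgeR's quasi-likelihood test on counts, with Benjamini-Hochberg adjustment over all 12968 tested genes and a threshold of 0.05. Over all tested genes, 36.4% were called, 19.6% higher and 16.8% lower, so the Gm genes as a whole were called at close to the background share. At least 2-fold rises were found in 11 Gm genes (background 6.17%) and at least 2-fold falls in 2 (background 1.94%). Of the 10112 other genes of at least 3 CPM, 522 rose and 100 fell at least 2-fold. The 11 include genes that reached 3 CPM with treatment only, such as Gm36043, whose rise the level rule favours. The 3 values of each group did not overlap in 54 Gm genes (background 50.1%). Log2 fold changes ran from -1.19 to 4.21 with a median of 0.01, against -0.01 for all tested genes. All 8 Gm genes that reached 3 CPM with treatment only were called higher, and the level rule favours this. Of the 82 that reached it in both groups, 17 rose and 13 fell. Over all genes of at least 3 CPM, 39.2% were called, 21.4% higher and 17.8% lower. With total count scaling, which moves the median of all genes from -0.01 to -0.18, 17 rose and 31 fell, and with upper quartile scaling (median -0.16) 20 rose and 31 fell. Without untreated replicate 3 or without IFN-γ replicate 3, the falls numbered 10.

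The calls can be split by class. Among the 56 lncRNAs, 21 rose and 8 fell, with a median log2 fold change of 0.20. The 8 Gm genes that reached 3 CPM with treatment only were all lncRNAs and make up 8 of these 21 rises, and 3 of the 8 falls were among the 6 lncRNAs that reached it in untreated cells only. Of the 42 lncRNAs that reached it in both groups, 13 rose and 5 fell, with a median of 0.19. The 107 other lncRNAs of at least 3 CPM, which carry other names, had 14 rises, 33 falls and a median of -0.17. Of the 36 protein-coding Gm genes, 4 rose (11.1%) and 8 fell (22.2%), against 21.5% and 17.7% of the other protein-coding genes of at least 3 CPM. Without the genes in which zinc finger patterns were found, the counts were 4 and 1 of 17. Some of these 17, such as Gm38396 and Gm42226, had no GENCODE transcript to search for such patterns. Of the 9 pseudogenes none was called by edgeR, DESeq2 or limma-voom, nor had any an unadjusted p under 0.05, and of all 57 tested pseudogenes 1 rose and 1 fell. The difference between these classes was not tested. In 32 of the 56 lncRNAs the lowest untreated value was that of untreated replicate 2, and without that library 23 lncRNAs rose, 11 fell and 2 pseudogenes rose. Without untreated replicate 3 or IFN-γ replicate 3, 5 lncRNAs fell. With upper quartile and total count scaling the lncRNA median stayed above 0 (0.05 and 0.03, with 16 and 15 rises against 12 falls each), while 17 protein-coding Gm genes and 2 pseudogenes fell under either.

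**Figure D1:**
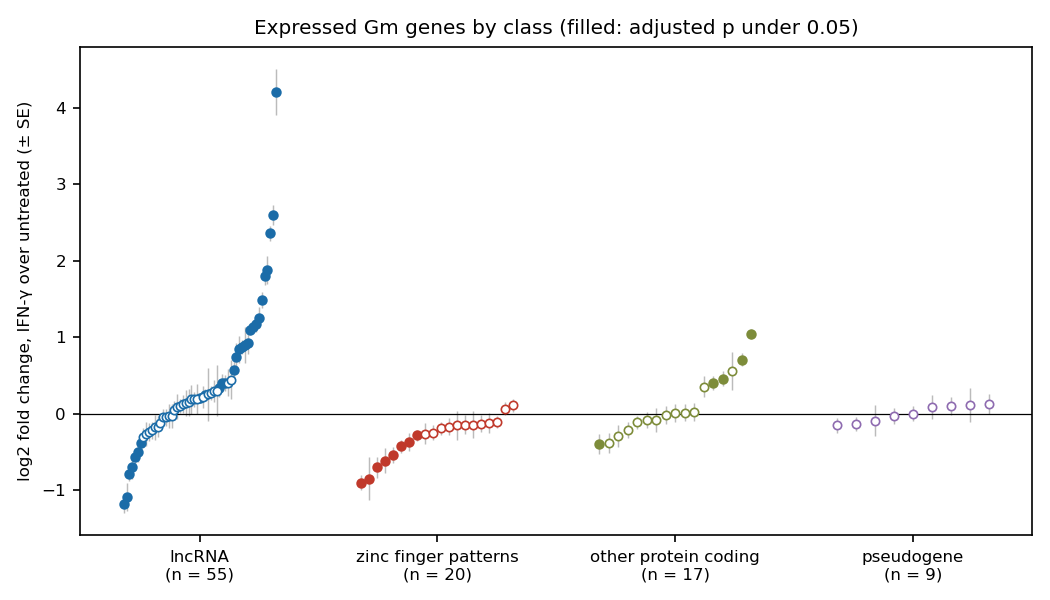
Log2 fold change (IFN-γ over untreated, with its standard error) of each of the 101 Gm genes, ordered within 4 classes, with genes called by edgeR filled. The lncRNAs reach 4.21, the 20 genes with zinc finger patterns have only falls among their filled points, and no pseudogene is filled. The zinc finger class includes 1 lncRNA, Gm14403.

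The lncRNA Gm36043 had the steepest rise. It lies on the minus strand of chromosome 19 (29356143 to 29362323, coordinates as the tables give them, build unnamed), inside the span of Cd274, which encodes the checkpoint ligand PD-L1 on the opposite strand. Its 3 untreated libraries had 0.565, 0.372 and 0.474 CPM, from 17, 11 and 16 counts, and its treated libraries had 11.9, 7.52 and 6.80 CPM. The groups were far apart, with IFN-γ replicate 1 above its partners. Like Gm51779, Gm16675, Gm36117, Gm35522 and Gm17160 below, Gm36043 reached 3 CPM with treatment only, so the level rule favours these rises. The log2 fold change was 4.21 ± 0.30 (edgeR quasi-likelihood adjusted p = 1.6e-05), and without IFN-γ replicate 1 it was 3.90. Cd274 itself rose from 40.7 ± 3.64 to 742 ± 25.9 CPM (SD, n = 3), a log2 fold change of 4.19 ± 0.09. The ratio of Gm36043 to Cd274 did not change detectably (log2 difference -0.18 ± 0.20, limma adjusted p = 0.53).

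All exon bases of Gm36043 lie in the Cd274 span and 4.83% of them are shared with Cd274 exons. The library kit marks strand, but whether counting used it is not given in the sources used here. Without strand, reads of an antisense gene and unspliced reads of its host cannot be told apart where exon bases of the antisense gene lie in the host span. The share of exon bases in the span of the nearest named gene differs between the overlapping pairs below. It is 100% for Gm17160 and Gm38515, 22.6% for Gm28913, 6.74% for Gm26637, 2.55% for Gm35522 and 0% for Gm40645. Some listed genes have at least 90% of their exon bases inside the exons of another gene, with at least 100 counts expected if covered like it. Their mean count was under 1 in 8 of 10 cases on the opposite strand and in 17 of 18 on the same strand. As counts were low on both, they do not show whether counting used strand.

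The lncRNA Gm51779 lies inside Dram1, a p53 target that acts in lysosomes and autophagy, on the same strand (chromosome 10, 88169903 to 88172666, minus). Untreated libraries had 1.83, 1.69 and 1.75 CPM and treated libraries 9.67, 8.53 and 8.86 CPM. The groups were clearly separate and tight, and the log2 fold change was 2.36 ± 0.10 (edgeR quasi-likelihood adjusted p = 7.03e-07). Dram1 rose by nearly the same amount, 2.32 ± 0.17, from 11.4 ± 3.00 to 57.0 ± 3.51 CPM. On the same strand an RNA of its own and Dram1 pre-mRNA cannot be told apart.

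Gm16675 is a lncRNA on chromosome 8 (47184005 to 47192550, minus) that starts 201 bases from the start of Irf2, on the other strand. Irf2 encodes a member of the IRF family that competes with Irf1 at shared sites. Gm16675 had 1.93, 1.15 and 1.39 CPM untreated and 5.82, 4.75 and 5.96 CPM with IFN-γ. No treated library came near the untreated ones. The log2 fold change was 1.89 ± 0.18 (edgeR quasi-likelihood adjusted p = 9.77e-05). Irf2 rose less, by 0.98 ± 0.06 from 65.1 ± 3.57 to 128 ± 4.34 CPM, and the ratio of Gm16675 to Irf2 was higher with IFN-γ (log2 difference 0.88 ± 0.18, limma adjusted p = 0.00694). The spans do not overlap, and Gm16675 shares no exon base with a listed gene.

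RefSeq promoter windows (GRCm38.p6, 250 bases before to 50 after the start) were at hand for 84 of the 101 Gm genes, 102 windows in all. They were searched on both strands for the GAS letters TTCNNNGAA and the ISRE core, GAAA, any 2 bases and GAAA again. GAS letters were in 5 windows (4.90%, against 6.97% of the windows of tested genes and 8.30% of all windows), and the ISRE core in 7 (6.86%, against 3.37% and 3.44%). Among these genes, Gm16675 alone had both. The 4 windows below belong to genes that rose and hold a match, shown in capitals. The window of Gm16675 holds GAS letters and then the ISRE core on the opposite strand. Gm51779 has the ISRE core on the opposite strand, Gm46224 has it on the strand of the gene, and Gm17160 has GAS letters. In the order printed the windows are chr8:46739466-46739765 (minus), chr10:88336755-88337054 (minus), chr10:51527507-51527806 (plus) and chr13:102762063-102762362 (plus), each 5′ to 3′ along its gene.
Gm16675: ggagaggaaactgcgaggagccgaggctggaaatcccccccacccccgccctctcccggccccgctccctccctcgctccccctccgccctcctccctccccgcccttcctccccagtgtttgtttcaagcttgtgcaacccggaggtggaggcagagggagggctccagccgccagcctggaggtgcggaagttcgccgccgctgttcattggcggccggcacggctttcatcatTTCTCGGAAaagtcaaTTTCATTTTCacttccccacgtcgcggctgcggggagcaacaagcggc
Gm51779: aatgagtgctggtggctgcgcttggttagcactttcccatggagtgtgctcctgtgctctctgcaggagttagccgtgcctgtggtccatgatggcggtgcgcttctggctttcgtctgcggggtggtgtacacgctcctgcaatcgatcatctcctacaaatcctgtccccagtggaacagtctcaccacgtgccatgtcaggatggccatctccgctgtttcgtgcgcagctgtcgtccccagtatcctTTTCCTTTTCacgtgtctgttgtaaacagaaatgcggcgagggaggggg
Gm46224: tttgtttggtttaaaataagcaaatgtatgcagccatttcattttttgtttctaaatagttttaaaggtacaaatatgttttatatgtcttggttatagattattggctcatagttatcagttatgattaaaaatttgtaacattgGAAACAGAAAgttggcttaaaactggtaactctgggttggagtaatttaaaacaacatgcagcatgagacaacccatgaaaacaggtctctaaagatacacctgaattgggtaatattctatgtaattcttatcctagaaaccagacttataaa
Gm17160: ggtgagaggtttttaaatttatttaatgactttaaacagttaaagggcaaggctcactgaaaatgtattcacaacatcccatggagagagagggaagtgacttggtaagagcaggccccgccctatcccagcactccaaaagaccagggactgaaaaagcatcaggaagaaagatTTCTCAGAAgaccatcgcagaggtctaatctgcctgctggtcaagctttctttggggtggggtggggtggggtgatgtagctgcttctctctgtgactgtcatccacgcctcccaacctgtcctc

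The GAS letters of Gm16675 begin 14 bases before its start and the ISRE core 2 bases after it. This window crosses the gap to Irf2, so it also covers the first bases on the Irf2 side. In Gm51779 the ISRE core lies 1 base after the start. The 11 Gm genes with either motif comprised 7 that rose, 2 that fell and 2 not called, while the 73 with a window and no match comprised 16 that rose and 13 that fell. Besides the 4 printed, the risen genes with a match were Gm38515 and Gm36161 (ISRE core) and Gm40085 (GAS), and the fallen ones were Gm5150 (ISRE core) and Gm26947 (GAS). Of the risen ones, Gm16675, Gm51779 and Gm17160 reached 3 CPM with treatment only, so the level rule favours their rise. The difference between genes with and without a match was not tested, and calls were not counted for all tested genes with a match. A match is a stretch of letters and not a binding site.

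On chromosome 17, the lncRNA Gm36117 (13253631 to 13258950, plus) had 1.40, 1.86 and 1.66 CPM untreated and 5.79, 5.60 and 5.73 CPM with IFN-γ. The treated values were nearly identical and all above the untreated ones (log2 fold change 1.80 ± 0.12, edgeR quasi-likelihood adjusted p = 1.06e-05). The nearest named tested gene was Gpr31b, a G protein-coupled receptor gene 11257 bases away. Gpr31b was low in both groups, with means of 0.0742 ± 0.0353 CPM (untreated, under the worth of 3 counts) and 0.667 ± 0.112 CPM (treated), and was called higher (edgeR quasi-likelihood adjusted p = 0.000436).

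A pair of lncRNAs rose beside Lilrb4a, which encodes an inhibitory receptor of myeloid cells. Gm46224 (chromosome 10, 51403846 to 51407257, plus, 31136 bases from Lilrb4a) had 2.76, 3.25 and 2.85 CPM untreated and 8.47, 8.69 and 7.67 CPM with IFN-γ. Its groups did not overlap, and its log2 fold change was 1.49 ± 0.10 (edgeR quasi-likelihood adjusted p = 1.27e-05). Lilrb4a rose by 0.54 ± 0.06, and the ratio of Gm46224 to it was higher with IFN-γ by 0.93 ± 0.10 (limma adjusted p = 0.000347). Gm40645, on the other strand and overlapping Lilrb4a, had 3.59, 2.23 and 3.20 CPM untreated and 6.01, 4.43 and 4.64 CPM with IFN-γ. Its log2 fold change was 0.74 ± 0.19 (edgeR quasi-likelihood adjusted p = 0.0167), its call was lost without IFN-γ replicate 1, and 21.02% of its exon bases are shared with another gene, foremost Lilr4b.

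Gm28913 is a lncRNA opposite Ikbke, which encodes the kinase IKKε of interferon and NF-κB signalling (chromosome 1, 131173012 to 131195702, plus). It had 7.61, 5.38 and 7.83 CPM untreated and 17.3, 16.7 and 15.8 CPM with IFN-γ. The treated libraries were all at least 2 times the highest untreated one, and the log2 fold change was 1.26 ± 0.13 (edgeR quasi-likelihood adjusted p = 0.000167). Ikbke rose by 1.18 ± 0.07. Farther along the chromosome, Gm35522 (172300705 to 172308560, minus) overlaps Igsf9, an immunoglobulin superfamily gene, and shares 20.0% of its exon bases with others, foremost Slamf9. Its values were 1.93, 2.13 and 2.11 CPM untreated and 4.25, 4.69 and 5.03 CPM with IFN-γ. The groups did not overlap (log2 fold change 1.18 ± 0.11, edgeR quasi-likelihood adjusted p = 9.79e-05), and Igsf9 rose by 1.49 ± 0.10.

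Gm20559 had the most counts of the 101. It is a lncRNA on chromosome 6 (3330738 to 3342209, minus), 30047 bases from Samd9l, an interferon-inducible antiviral gene on the same strand. Its values were 88.3, 82.9 and 88.6 CPM untreated and 190, 190 and 191 CPM with IFN-γ. This was the best measured rise, with 2451 to 6175 counts per library, and the log2 fold change was 1.14 ± 0.05 (edgeR quasi-likelihood adjusted p = 1.22e-06). Samd9l rose by 1.43 ± 0.11, from 99.0 ± 15.7 to 267 ± 3.16 CPM, and the ratio fell slightly in log2 terms (-0.31 ± 0.10, limma adjusted p = 0.0486). After TMM scaling, the 101 Gm genes summed to 829 to 870 CPM untreated and 1028 to 1059 CPM with IFN-γ. Without Gm20559 the sums were 746 to 782 CPM and 838 to 868 CPM. The size of this difference depends on the scaling: as a share of all counts, the 101 held 0.0854% to 0.0941% untreated and 0.0975% to 0.0994% with IFN-γ.

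On chromosome 13, Gm36161 and Gm21188 rose together (120471878 to 120513740). Gm36161, a lncRNA, had 23.7, 25.3 and 23.2 CPM untreated and 48.0, 53.4 and 52.8 CPM with IFN-γ (log2 fold change 1.09 ± 0.07, edgeR quasi-likelihood adjusted p = 7.38e-06). Gm21188, a protein-coding model, had 16.7, 17.8 and 17.9 CPM untreated and 34.2, 37.8 and 35.9 CPM with IFN-γ (1.04 ± 0.07, edgeR quasi-likelihood adjusted p = 9.34e-06). The groups of each were apart by more than their spread. In GENCODE transcripts, 64.3% of the 50-base stretches of Gm36161 also occur in Gm21188, so counts may be split between them. The nearest named tested gene, Zfp131, lies 218807 bases from Gm36161 and rose by 0.25 ± 0.06, and both ratios to it were higher with IFN-γ (0.84 ± 0.10 and 0.79 ± 0.09, limma adjusted p = 0.000497 and 0.000529).

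Gm17160 closes the list of the largest rises. This lncRNA lies opposite and inside the kinase gene Mast4 (chromosome 13, 102898821 to 102904700, plus). It had 2.96, 2.30 and 3.02 CPM untreated and 5.95, 4.98 and 4.83 CPM with IFN-γ, without overlap (log2 fold change 0.92 ± 0.14, edgeR quasi-likelihood adjusted p = 0.00124). Mast4 rose by 0.49 ± 0.14.

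**Figure D2:**
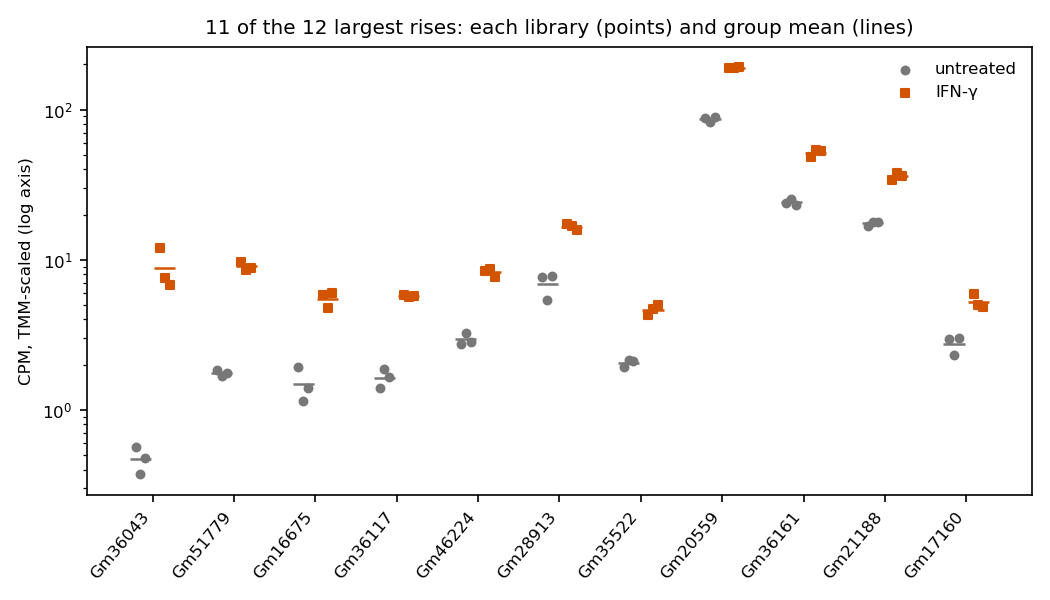
Level in CPM (TMM-scaled, log axis) of 11 of the 12 Gm genes with the largest rises, with each library as a point and the mean of 3 as a line. In all 11 the treated points lie above the untreated ones, from Gm36043 (0.372 to 0.565 CPM untreated) to Gm20559 (82.9 to 88.6 CPM untreated). Gm36043, Gm51779, Gm16675, Gm36117, Gm35522 and Gm17160 reached 3 CPM with treatment only, and the level rule favours their rise.

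The other 13 rises had log2 fold changes of 0.20 to 0.90. Among them, Gm38515 opposite Lmo2, a regulator of blood cell formation, rose by 0.90 ± 0.24, and its call was lost without IFN-γ replicate 1. Gm46272, opposite Aftph, a trafficking gene with which it shares 10.7% of its exon bases, rose by 0.87 ± 0.09. Gm40085, 12933 bases from the ETS-family repressor gene Etv3, rose by 0.84 ± 0.18, close to the 0.96 ± 0.10 of Etv3. Gm26637 starts 688 bases from the start of Eif2ak2, which encodes the double-stranded RNA sensor kinase PKR, and rose by 0.40 ± 0.09, a call lost with total count scaling. Eif2ak2 rose by 1.21 ± 0.05, more than Gm26637 (log2 ratio -0.81 ± 0.09, limma adjusted p = 0.000399). The calls of Gm46174, Gm10874, Gm51701 and Gm11613 (log2 fold changes 0.20 to 0.40) were lost with total count scaling and with DESeq2. They were also lost when most single libraries were left out. In those runs, Gm10874 kept its call only without untreated replicate 3, the others only without untreated replicate 2.

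Risen Gm genes tended to have a risen neighbour. They include the 8 that reached 3 CPM with treatment only, whose rise the level rule favours, and the neighbours of these were not counted apart. Of the 25, the nearest named tested gene was higher in 20, lower in none and not called in 5 (edgeR, DESeq2 and limma-voom alike, and none was lower at an unadjusted p under 0.05). For all 2539 tested genes that rose, the nearest named gene was higher in 37.9%, so the Gm genes' 80.0% was above that share; the difference was not tested. Where the 2 spans overlapped it was 10 of 11, and where they did not it was 10 of 14 (43.7% and 36.97% for all risen genes of each kind). Across the 101 Gm genes the log2 fold change went with that of the neighbour (Pearson's r = 0.78, Spearman's rho = 0.58), against 0.39 and 0.26 across 12966 tested genes. For the 67 pairs without overlap the values were 0.58 and 0.46. The values for all tested genes include genes under 3 CPM. Pearson's r weighs large changes most, such as that of Gm36043 with Cd274 (4.21 and 4.19). Of the 41 called Gm genes, risen or fallen, 33 went in the same direction as the nearest named gene, called or not. With the nearest named gene on the same strand it was 27 of 41. No share over all tested genes is given for these counts. Genes are not independent replicates, some Gm genes share a neighbour, and both members of a pair come from the same 6 libraries.

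**Figure D3:**
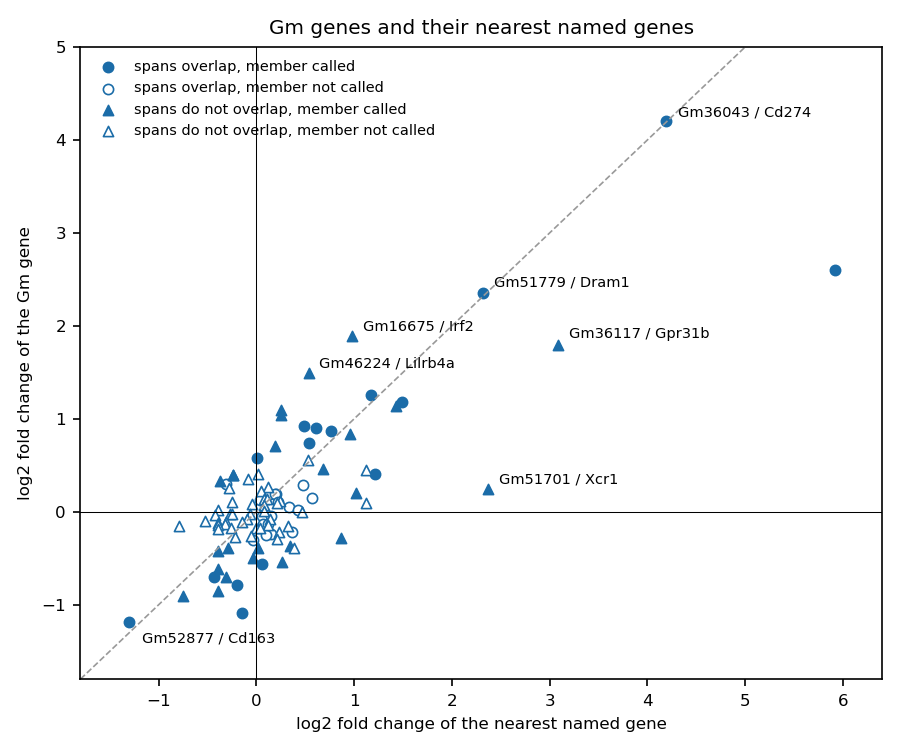
Log2 fold change (IFN-γ over untreated) of each of the 101 Gm genes against that of its nearest named tested gene, with circles where the spans overlap, triangles where they do not, filled points for called Gm genes and a dashed line of equal change. Gm36043 and Gm51779 lie close to the line, Gm16675 and Gm46224 above it, and Gm51701 far below it.

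The ratio of a Gm gene to its neighbour, tested with limma on log2 CPM within each library, changed for 22 of the 101 pairs (background 33%): in 9 the Gm gene rose more or fell less, and in 13 it rose less or fell more. Among the 41 called Gm genes, 24 had a ratio that was not called. Wide gaps between partners were found at Xcr1, a chemokine receptor gene of cross-presenting dendritic cells, and at Erap1, which encodes a peptidase that trims peptides for MHC class I. Gm51701, 33015 bases from Xcr1, had 6.18, 6.12 and 6.17 CPM untreated and 6.90, 7.36 and 7.57 CPM with IFN-γ, which is a small rise of 0.24 ± 0.08. Xcr1 went from 0.587 ± 0.197 to 3.02 ± 0.420 CPM, so the ratio changed by -2.04 ± 0.28 (limma adjusted p = 0.00108).

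Gm46430, a zinc finger gene 21608 bases from Erap1, moved the other way from its neighbour. It had 12.3, 11.5 and 12.01 CPM untreated and 9.77, 10.0 and 9.63 CPM with IFN-γ (log2 fold change -0.28 ± 0.07, edgeR quasi-likelihood adjusted p = 0.0131), and its call was lost without IFN-γ replicate 3. Erap1 rose by 0.87 ± 0.10, and the ratio changed by -1.16 ± 0.11 (limma adjusted p = 0.000154).

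Of the 16 Gm genes that fell, 8 were lncRNAs by biotype and 8 were protein coding. The steepest fall was that of Gm52877, a lncRNA inside Cd163 on the opposite strand (chromosome 6, 124289003 to 124298574, minus). Cd163 encodes the haemoglobin scavenger receptor of resting macrophages. Gm52877 had 11.2, 8.80 and 10.9 CPM untreated and 4.59, 4.53 and 4.45 CPM with IFN-γ. Treated values were tight and well below the untreated ones, with a log2 fold change of -1.19 ± 0.11 (edgeR quasi-likelihood adjusted p = 7.4e-05). The log2 fold change of Cd163 was -1.30 ± 0.24, with 1.52 ± 0.372 CPM before and 0.615 ± 0.0548 CPM after treatment, and 15.4% of the exon bases of Gm52877 are shared with it.

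Gm16217, a lncRNA inside and opposite the endocytic receptor gene Lrp1 (chromosome 10, 127431279 to 127442008, plus), had 7.38, 4.97 and 5.10 CPM untreated and 2.56, 2.54 and 3.09 CPM with IFN-γ. Untreated replicate 1 stood above the other two, and no value of 1 group reached the other (log2 fold change -1.09 ± 0.18, edgeR quasi-likelihood adjusted p = 0.00196). Lrp1 was not called (863 ± 195 CPM against 779 ± 166 CPM), and the ratio fell by 0.91 ± 0.22 in log2 terms (limma adjusted p = 0.0157). Gm52186, opposite Cyth4, which encodes an ARF exchange factor, had 7.21, 4.87 and 5.22 CPM untreated and 3.60, 3.42 and 3.61 CPM with IFN-γ. Here too the groups did not overlap (-0.70 ± 0.16, edgeR quasi-likelihood adjusted p = 0.00902), and Cyth4 fell by 0.44 ± 0.06.

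The next 3 lncRNAs that fell had a neighbour that was not called. Gm16201, which overlaps Spef1l and shares 23.04% of its exon bases with it, had 5.12, 5.41 and 5.46 CPM untreated and 2.83, 3.22 and 3.22 CPM with IFN-γ, far apart for their spread (-0.79 ± 0.10, edgeR quasi-likelihood adjusted p = 0.000438). Gm26740, whose span overlaps the NKG2D ligand gene H60b, had 11.5, 9.57 and 10.8 CPM untreated and 7.70, 6.74 and 7.15 CPM with IFN-γ, again without overlap (-0.56 ± 0.10, edgeR quasi-likelihood adjusted p = 0.00243). Gm6634, with 3.49, 3.21 and 3.74 CPM untreated and 2.83, 2.41 and 2.13 CPM with IFN-γ, changed by -0.50 ± 0.14 (edgeR quasi-likelihood adjusted p = 0.0213). Its call was lost without untreated replicate 3, IFN-γ replicate 2 or IFN-γ replicate 3. Gm5150 and Gm26947 each changed by -0.39 ± 0.13 (edgeR quasi-likelihood adjusted p = 0.0422 and 0.0453). The call of Gm5150 was lost without untreated replicate 3 or any treated library, and that of Gm26947 without any library but untreated replicate 2. With all libraries, the call of Gm26947 was also lost with DESeq2 and with limma-voom. Over all 16 fallen Gm genes, the neighbour was lower in 5, higher in 3 and not called in 8. For all 2176 tested genes that fell it was lower in 24.7%, higher in 11.4% and not called in 63.8%, so the share with a fallen neighbour (31.2%) was near the background.

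**Figure D4:**
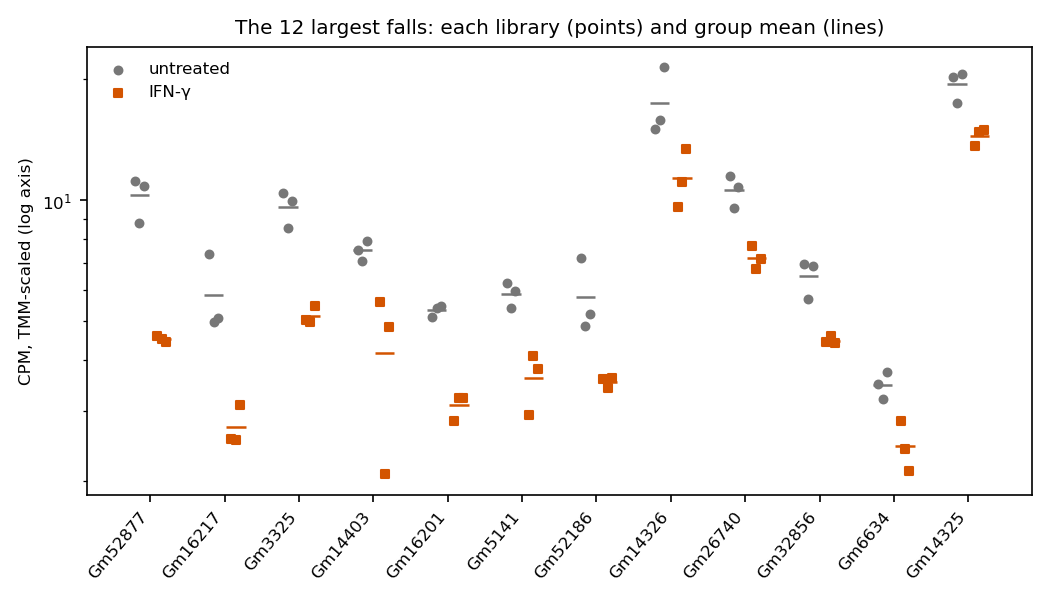
Level in CPM (TMM-scaled, log axis) of the 12 Gm genes with the largest falls, with each library as a point and the mean of 3 as a line. In all 12 the untreated points lie above the treated ones. Gm14403 has 1 treated library, at 2.08 CPM, well under the other two.

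Zinc finger genes made up much of the downward side. A script counted C2H2 zinc finger patterns in GENCODE transcripts, which 68 of the 101 Gm genes matched, and 20 had at least 3 patterns. None of these 20 rose, also at an unadjusted p under 0.05 by edgeR, DESeq2 or limma-voom, and 8 fell, with a median log2 fold change of -0.22, and 18 of 20 lay below 0. The 371 other genes of at least 3 CPM with such patterns had 48 rises, 63 falls and a median of -0.05. In every alternative run none of the 20 was called higher, while the number called lower was 5 to 10 when a single library was left out and 13 with upper quartile or total count scaling. The 5 were found without untreated replicate 3 and without IFN-γ replicate 3.

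Gm3325, with 22 patterns, had 10.4, 8.56 and 9.96 CPM untreated and 5.05, 4.98 and 5.48 CPM with IFN-γ. Its groups were widely separate, and the log2 fold change was -0.90 ± 0.10 (edgeR quasi-likelihood adjusted p = 0.000224). Gm5141, with 16 patterns, had 6.22, 5.41 and 5.96 CPM untreated and 2.93, 4.10 and 3.80 CPM with IFN-γ (-0.70 ± 0.13, edgeR quasi-likelihood adjusted p = 0.00437). Both lie with Gm3604 on chromosome 13 between 62163502 and 62933622, where all 3 Gm genes of the cluster fell. The log2 fold change of Gm3604 was -0.37 ± 0.11. Its call was lost with DESeq2, and without untreated replicate 1, untreated replicate 3, IFN-γ replicate 1 or IFN-γ replicate 3. The nearest named gene to Gm3325, Zfp808, fell by 0.75 ± 0.14, and 20.2% of the 50-base stretches of Gm3325 also occur in Zfp808. The nearest to Gm3604, Zfp935, instead rose by 0.34 ± 0.11.

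A larger cluster of 6 zinc finger Gm genes spans chromosome 2 from 176400146 to 177599189, and 3 of the 6 fell. Gm14403, a lncRNA by biotype, had 7.54, 7.07 and 7.95 CPM untreated and 5.58, 2.08 and 4.83 CPM with IFN-γ. IFN-γ replicate 2 stood far below its partners: the log2 fold change was -0.85 ± 0.28 (edgeR quasi-likelihood adjusted p = 0.0457), it was -0.53 without that library, and the call was lost without untreated replicate 1, untreated replicate 3 or IFN-γ replicate 3. Gm14326 had 15.02, 15.9 and 21.4 CPM untreated and 9.61, 11.1 and 13.5 CPM with IFN-γ (-0.62 ± 0.17, edgeR quasi-likelihood adjusted p = 0.0200), a call lost without untreated replicate 3, IFN-γ replicate 1 or IFN-γ replicate 2. Gm14325 had 20.2, 17.5 and 20.6 CPM untreated and 13.7, 14.8 and 14.98 CPM with IFN-γ (-0.43 ± 0.09, edgeR quasi-likelihood adjusted p = 0.00559). The 3 that were not called, Gm14305, Gm14295 and Gm14410, had log2 fold changes of -0.14, -0.19 and -0.12. These genes share much of their sequence: 70.4% of the stretches of Gm14325 occur in Gm14326, so how reads were split between copies bears on each value.

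On chromosome 8, Gm32856, with 4 patterns, lies 529813 bases from the nearest named tested gene, Itgb1. It had 6.95, 5.68 and 6.88 CPM untreated and 4.44, 4.59 and 4.41 CPM with IFN-γ, with no overlap (-0.54 ± 0.10, edgeR quasi-likelihood adjusted p = 0.00453). A cluster of 4 Gm genes lies on chromosome 17 between 17225378 and 17539847. Only Gm5165 of these, with 18 patterns, is among the 20 zinc finger genes, and Gm38396 had no GENCODE transcript to search. None of the 4 was called by edgeR, DESeq2 or limma-voom, or had an unadjusted p under 0.05, with log2 fold changes of -0.11 to 0.07. The difference between these clusters was not tested.

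Among the 60 Gm genes that were not called, log2 fold changes ran from -0.39 to 0.56, with 28 above 0 and 32 below. The 9 pseudogenes lay between -0.15 and 0.12. Many share sequence with another gene in GENCODE transcripts: 73.5% of the stretches of Gm14681 occur in Npm1, 76.6% of those of Gm12854 in S100a11 and 86.2% of those of Gm12693 in Rwdd1. Reads of both genes may therefore be mixed in the shared part. That part can be small in the counted model: Gm12854 has 248 stretches against 1721 exon bases, and Gm12693 has 434 against 1602. Gm14681 had 28.5, 36.2 and 30.7 CPM untreated and 28.9, 29.2 and 27.5 CPM with IFN-γ, overlapping values whose log2 difference of -0.15 ± 0.09 was not called. Over all 68 Gm genes with a GENCODE transcript, 17 shared at least 50% of their stretches with another gene and 35 shared at least 10%.

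Of the 6 Gm genes with the most counts, 3 rose (Gm20559, Gm36161 and Gm21188) and 3 were not called (Gm14681, Gm7072 and Gm42226). Gm42226, a protein-coding model, had 47.5, 32.5 and 48.3 CPM untreated and 56.8, 54.0 and 53.1 CPM with IFN-γ. Every treated value was above every untreated one, and untreated replicate 2 was low. The log2 difference was 0.35 ± 0.14 (edgeR quasi-likelihood adjusted p = 0.0817), and without untreated replicate 2 it was 0.19 and called (adjusted p = 0.0119, same test). With all libraries it was also called by DESeq2 (0.35, adjusted p = 0.0481), without a filter on low counts (0.35, edgeR adjusted p = 0.0417) and with the replicate number as a block (0.37, edgeR adjusted p = 0.0176). Gm7072, a zinc finger gene with 18 patterns, had 22.5, 21.4 and 24.4 CPM untreated and 19.8, 20.8 and 22.8 CPM with IFN-γ, which overlap (-0.11 ± 0.08).

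Gm39469, a model on chromosome 9, had the highest log2 fold change among those not called. It had 7.15, 3.25 and 6.85 CPM untreated and 7.73, 9.15 and 8.60 CPM with IFN-γ, and untreated replicate 2 was less than the others (0.56 ± 0.25, edgeR quasi-likelihood adjusted p = 0.118). Gm34084 had 5.42 to 8.29 CPM untreated and 6.72 to 6.97 CPM with IFN-γ, while Jarid2, the nearest named tested gene at 248013 bases and a subunit of Polycomb complexes, rose by 1.12 ± 0.07. The ratio of Gm34084 to Jarid2 changed by -1.004 ± 0.20 (limma adjusted p = 0.00709).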

How the data were processed

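Per the labels' protocols, RNA came from a Trizol extraction and libraries from a KAPA kit for stranded mRNA; alignment used HISAT2 and mm10, per the submitters' processing notes. The counting tool is not given in the sources used here. Per the file headers, the tables give a raw count, a TPM and an FPKM for each gene. The authors deposited whole, unnormalized counts, and these were tested; the authors' TPM values were used for levels between genes, and the authors' FPKM values were not used. Coordinates are those of the tables and differ from mm10.

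Counts were analysed with edgeR 4.0.16 in R 4.3.3 (filterByExpr, minimum count 10 and total 15; TMM; glmQLFTest over 12968 genes). Printed library values are TMM-scaled CPM. A standard error is the absolute log2 fold change over the root of the F statistic. Ratios to the nearest named tested gene were fitted with limma 3.58.1 on log2 CPM with a prior count of 2, adjusted over 12966 pairs. Zinc finger patterns and shared 50-base stretches came from GENCODE M21 transcripts. The steps were tested on simulated data. Alternatives were other scalings, filters, DESeq2 1.42.0, limma-voom, the replicate number as a block, each library left out, a level of 10 CPM, exon overlap left out, a same-strand neighbour and a prior count of 0.5.

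The Gm genes and all lists were chosen with earlier results of these data known. Named genes were the 12 largest rises and falls among called genes, the 6 with most counts, up to 6 beside a pathway gene, up to 6 that differed most from the neighbour and those next to the level; others were named after their values were seen. Results of some genes are not reported here. Figures used Python 3.11.15 and matplotlib 3.10.9.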

Additional observations from a re-analysis of the deposited data

How the results depend on the processing

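No called Gm gene changed direction in the alternatives run, but the median of the 101 did. With upper quartile scaling, 31 Gm genes fell and the median log2 fold change was -0.13; with total count scaling, 31 fell, 4 of them at least 2-fold, and the median was -0.16. These scalings move the median of all tested genes to -0.16 and -0.18. A filter of 5 CPM in 3 libraries kept 65 Gm genes, of which 15 rose, with a median of -0.0496. Among the 23 Gm genes of at least 10 CPM, 7 rose and 3 fell, 4 and 0 of them at least 2-fold. Without the 7 Gm genes that share at least 10% of exon bases, 1 fell at least 2-fold. Leaving out each library gave 18 to 31 rises, 10 to 21 falls, 11 to 12 at least 2-fold rises, 1 to 3 at least 2-fold falls and medians of -0.0186 to 0.0620. The causes were not tested.

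Of the 25 rises 15, and of the 16 falls 9, kept their call in every alternative in which the gene was tested. Whether the replicate numbers pair the libraries is not settled. Same-numbered deviations from the group means correlated at 0.31, 0.14 and -0.07, and other pairs at -0.34 to 0.24, too few values to decide. With the replicate number as a block, 27 rose and 17 fell, and 39 of the 41 called Gm genes were called. At fewer than 10 CPM, as for 78 Gm genes, counts limit what small changes can be seen, and the worth of 3 counts covers counting error only.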
